A study of Homo sapiens with 10 samples.

Results

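Among 42067 H3K27ac peaks counted in Rh30 cells, 486 (1.16%) were lower after 2 h of the degrader dTAG47 and were also lower after 24 h. They were chosen by their own counts, expressed as CPM, the count in a peak scaled so that every library has the same total over all peaks. A peak was kept if it averaged at least 10 CPM in the DMSO libraries and if every 2 h and 24 h library lay below both DMSO libraries. L, the log2 ratio of the group's mean CPM to the DMSO mean CPM after adding 1 CPM to each, also had to be at or below -0.5 at 2 h and at 24 h. The DMSO minimum left 26110 peaks, of which the 486 are 1.86%. The 2 h conditions alone kept 734 peaks and the 24 h conditions alone 1484, so the 486 are 66.2% of the first list and 32.7% of the second. Both lists share the DMSO libraries. The mirrored rule, with every 2 h and 24 h library above both DMSO libraries and L at least as far above 0, kept 60 peaks.

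Rh30 is an established human line of alveolar rhabdomyosarcoma, a childhood tumour of the skeletal muscle lineage. All cells in the study carried PAX3-FOXO1, the fusion transcription factor that drives this tumour, joined to an FKBP tag that makes it degradable. The 4 groups were DMSO, the solvent control, and 500 nM dTAG47 for 2 h, 4 h and 24 h, with 2 H3K27ac libraries each, called A and B. The DMSO group has no stated time, and whether the line is a single clone is not stated. The 2 input libraries of DMSO-treated cells were not analysed here. CPM and the tests compare each peak with the library's total, so a change shared by all peaks would not show.

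H3K27ac is acetylation of a lysine near the end of the histone H3 tail. It is placed by the acetyltransferases p300 and CBP, removed by histone deacetylases and found at active promoters and enhancers. PAX3-FOXO1 binds mostly distal sites through the DNA-binding domains of PAX3, and its FOXO1 part activates transcription. dTAG ligands join an FKBP-tagged protein to the ubiquitin ligase receptor cereblon, so that the proteasome destroys it. The files pair no peak with a gene and no genome or annotation of their build, hg19, was at hand, so peaks are given by position, with no gene names, promoter assignments or sequences.

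The total count per library ran from 3540104 to 5001652. A library's median count over the 486 peaks ran from 34 to 57, so many of these peaks rest on few reads. All 486 entered the count test. The comparisons of 2 h and 24 h with DMSO chose the peaks and are described here without support from any test. The 4 h libraries played no part in the choice, but their comparison with DMSO uses the DMSO libraries that did.

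The early-lost peaks were of modest strength. Their DMSO mean had a median of 16.1 CPM (quartiles 12.3 and 23.8, highest 146), against 24.1 CPM over the 26110 peaks that met the DMSO minimum. Members made up 3.28% of the 6732 peaks between 10 and 15 CPM in DMSO, 1.77% of the 4912 peaks between 20 and 30 CPM and 0.438% of the 5253 peaks above 50 CPM. Weak peaks also have the larger counting error, and its part in this gradient was not tested. The 486 peaks together held 10274 and 10456 CPM in DMSO, 6326 and 6104 CPM at 2 h, 5947 and 6002 CPM at 4 h, and 5258 and 5125 CPM at 24 h. In each library this is close to or under 1% of the counts. Both libraries of every treated group lay below both DMSO libraries, which the rule required at 2 h and 24 h but not at 4 h. The median peak kept 61% of its DMSO mean CPM at 2 h, 57.5% at 4 h and 50.6% at 24 h.

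Levels at 4 h, which did not enter the choice, were low in nearly all of these peaks. The median L at 4 h was -0.75 (-0.76 in library A and -0.78 in library B), between the medians of -0.66 at 2 h and -0.90 at 24 h. Over all 41791 peaks tested, the median L lay near 0 at every time (0.01 at 2 h, 0.02 at both later times). The 4 h mean was below the DMSO mean in 486 of 486 peaks. Both 4 h libraries lay below both DMSO libraries in 467 (96.1%), against 22.1% of the 26110 peaks that met the DMSO minimum. L at 4 h was at or below -0.5 in 388 members, against 3.19% of those 26110 peaks. For description, the 998 peaks that met only the 24 h conditions had a median L at 4 h of -0.31 and full separation of 4 h from DMSO in 66.5%, and the 248 that met only the 2 h conditions had -0.38 and 72.2%. All these lists share the DMSO libraries.

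**Figure D1:**
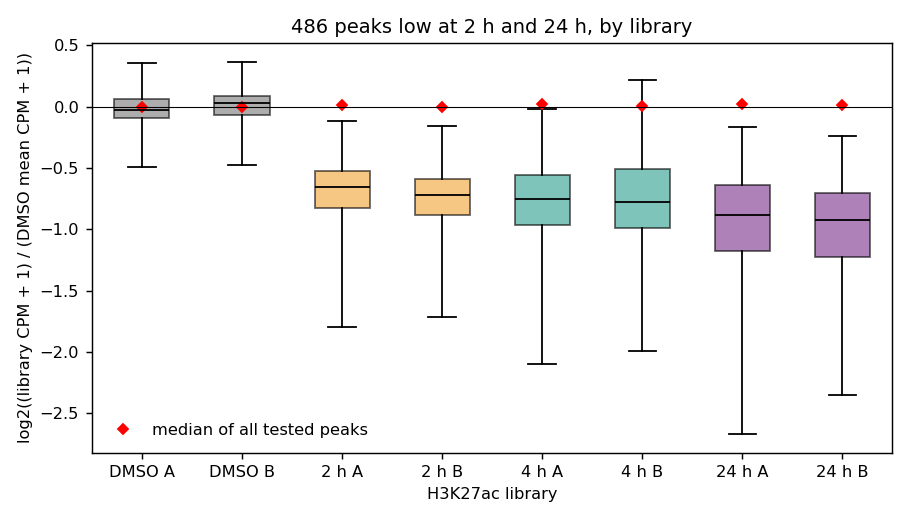
Box plot of the 486 early-lost peaks in each of the 8 H3K27ac libraries; the y axis is the log2 ratio of the library's CPM plus 1 to the DMSO mean CPM plus 1, boxes show quartiles and median, whiskers the full range, and red diamonds the median of all 41791 peaks tested. The 4 h libraries, with medians of -0.76 and -0.78, sit between the 2 h and the 24 h libraries, while the diamonds stay near 0.

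In edgeR's quasi-likelihood test over all peaks, 310 of the 486 were called lower at 4 h than in DMSO at a Benjamini-Hochberg adjusted p under 0.05, against 1.67% of the 41791 peaks tested. The median log2 change of these 310 was -0.97. The 176 members that were not called averaged 13.0 CPM in DMSO at the median, against 19.1 CPM for the called ones. Of members with at least 20 CPM in DMSO, 140 of 161 were called, and of those under 20 CPM, 170 of 325. The number called was 199 without DMSO library A, 176 without DMSO library B, 200 without 4 h library A and 176 without 4 h library B. The DESeq2 Wald test called 67 members lower at 4 h (0.187% of all peaks), and edgeR's glmTreat test against a 1.2-fold change called 198 (0.601%).

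The rule was also applied with 1 library left out, and the peaks so chosen were read in that library. Without DMSO library A, 695 peaks met the remaining conditions, and in 585 of them (84.2%) library A also lay above all 4 libraries of 2 h and 24 h. Their median log2 ratio at 2 h was -0.50 against the left-out library A and -0.67 against library B, which had chosen them. At 4 h the ratios were -0.51 and -0.74. Without DMSO library B, 563 peaks met the conditions and B lay above all 4 treated libraries in 502 (89.2%). The median at 4 h was then -0.58 against B and -0.71 against A. The drop was of the same direction, and smaller, against DMSO libraries that took no part in the choice. For left-out treated libraries, the share lying below both DMSO libraries was 93.9% for 2 h A and 97.2% for 2 h B. It was 98% for 24 h A and 99.1% for 24 h B. Those peaks had still been chosen with both DMSO libraries and the other library of the group, so these shares are not independent of the choice. With a DMSO library left out, the 2 h and 24 h libraries had still chosen the peaks. Shares over all peaks are not given.

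The counts of members in the contrasts that chose them are a description. edgeR called 263 lower at 2 h (1.03% of all peaks) and 437 lower at 24 h (4.88%). DESeq2 called 23 at 2 h (0.0574%) and 204 at 24 h (0.938%), and glmTreat called 87 at 2 h (0.232%). By edgeR, 225 members were called at all 3 times and 42 at none. The share of all peaks called at all 3 times is not given and can be at most the 1.03% called at 2 h. L was at or below -1 at both 2 h and 24 h in 36 members. Of these, 29 were also at or below -1 at 4 h, against 102 of the 26110 peaks that met the DMSO minimum. Their highest 4 h value was -0.82, and edgeR called 36 of 36 lower at 4 h, against 1.67% of all peaks tested. The 36 were picked as low against the same DMSO libraries, so these counts are a description.

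Members differed in how far the signal went down after 2 h. L was lower at 24 h than at 2 h in 372 of 486 peaks, against 13513 of the 26110 peaks that met the DMSO minimum. Over the members, the median of L at 24 h minus L at 2 h was -0.20 (range -1.54 to 0.45). This difference was within 0.1 of 0 in 132 members, at or below -0.5 in 89 and at or above 0.25 in 11. Both 24 h libraries lay below both 2 h libraries in 229 members (47.1%), against 25.1% of the peaks that met the DMSO minimum. Both 24 h libraries lay above both 2 h libraries in 19 members (3.91%), against 20.8% of the peaks that met the DMSO minimum. L at 4 h was between the other 2 values in 210 members, below both in 85 and above both in 191. Among the 26110 peaks that met the DMSO minimum, these counts were 10369, 7545 and 8196. Libraries of 2 h and 24 h enter the choice, so these counts carry no test of their own.

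**Figure D2:**
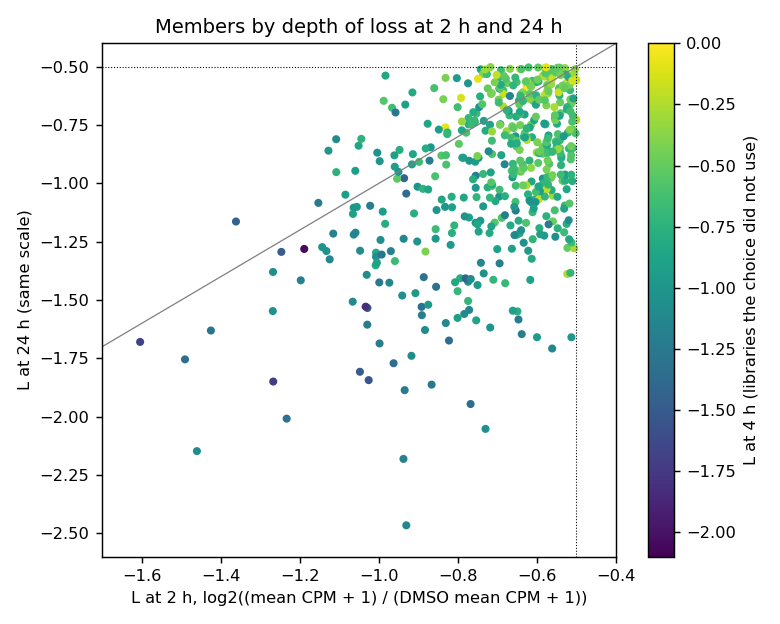
Each of the 486 early-lost peaks by L at 2 h (x axis) and L at 24 h (y axis), both log2 ratios to DMSO with 1 CPM added; colour gives L at 4 h, dotted lines mark the limit of -0.5 used to choose the peaks, and the grey line marks equal values. Most points, 372 of 486, lie below the line of equal values.

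The direct comparison of 24 h with 2 h in edgeR called 50 members lower, against 2.49% of all peaks. Their median log2 change was -0.80, and both 24 h libraries lay below both 2 h libraries in 50 of 50. It called 0 members higher, with 1 higher at an unadjusted p under 0.05, and DESeq2 also called 0 higher. The 50 became 33 without 2 h library A and 24 without 2 h library B, 24 h library A or 24 h library B. DESeq2 called 4 members lower (0.117% of all peaks) and glmTreat 19 (0.447%). Between 24 h and 4 h, edgeR called 11 members lower (0.68% of all peaks), of which 6 were also among the 50. The 11 became 5 without 4 h library A, 1 without 4 h library B, 4 without 24 h library A and 3 without 24 h library B. DESeq2 called 0 lower there, with 39 at an unadjusted p under 0.05 (0.00718% of all peaks called), and glmTreat 0 (0.0335%). Between 4 h and 2 h, edgeR and DESeq2 called 0 members in either direction, and edgeR called 0.0% of all peaks lower. At an unadjusted p under 0.05, edgeR had 35 members lower and 11 higher there.

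The 6 peaks with the lowest L at 4 h, among members at or above the median DMSO level, had 4 h means of 4.29 to 6.43 CPM. As they were picked by their 4 h level, the log2 changes and p-values given for them at 4 h follow from the pick and are a description. The peak at chr21:36933851-36934251 had 18.9 and 14.1 CPM in DMSO, 5.81 and 6.74 CPM at 2 h, 4.12 and 4.45 CPM at 4 h, and 3.60 and 4.12 CPM at 24 h. Its log2 change at 4 h was -1.95 (SE 0.27, edgeR adjusted p = 1.41e-08). All 6 treated libraries lay below both DMSO libraries, and L was already -1.27 at 2 h.

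A pair of neighbouring peaks on chromosome 11 lay 1.01 kb apart and showed the same early drop. The first, chr11:20791098-20791498, had 13.8 and 21.2 CPM in DMSO, 5.53 and 4.64 CPM at 2 h, 5.49 and 3.96 CPM at 4 h, and 5.20 and 4.35 CPM at 24 h. Its L of -1.60 at 2 h was the lowest of the 486, and L was -1.69 at 4 h and -1.68 at 24 h, so most of the drop was present at 2 h. The second, chr11:20792510-20792910, had 17.5 and 18.3 CPM in DMSO, 6.36 and 7.59 CPM at 2 h, 3.85 and 7.67 CPM at 4 h, and 6.80 and 6.64 CPM at 24 h. The log2 changes at 4 h were -1.91 (SE 0.26, edgeR adjusted p = 1.31e-08) and -1.62 (SE 0.24, edgeR adjusted p = 4.02e-07). Windows this close can lie on the same acetylated stretch and are not separate replicates.

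Another chromosome 11 peak, chr11:20298483-20298883, had a lower mean at each later time. It had 20.3 and 21.2 CPM in DMSO, 10.5 and 8.85 CPM at 2 h, 7.42 and 5.44 CPM at 4 h, and 6.0 and 4.12 CPM at 24 h. Its 4 h libraries overlapped those of 24 h. The remaining 2 of the 6 were chr15:57943609-57944009, with 6.04 and 6.18 CPM at 4 h against 19.8 and 18.0 CPM in DMSO, and chr20:40619592-40619992, with 6.32 and 4.70 CPM at 4 h against 16.1 and 16.9 CPM in DMSO. The chromosome 20 peak stood at 8.29 and 8.01 CPM at 2 h and 6.40 and 9.38 CPM at 24 h, so its lowest mean was at 4 h. edgeR called these 3 peaks lower at 4 h as well (adjusted p = 8.54e-09, 1.04e-07 and 1.28e-06).

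At the other end, the 3 members with the highest L at 4 h were close to DMSO at that time. The peak at chr11:64936801-64937201 had 11 and 12.1 CPM in DMSO, 6.91 and 7.38 CPM at 2 h, 11.3 and 11.1 CPM at 4 h, and 7.0 and 7.78 CPM at 24 h. The 4 h libraries overlapped DMSO, whereas those of 2 h and 24 h lay below it. The peaks at chr6:50830097-50830497 and chr5:37723247-37723647 had 4 h values of 11 and 9.89 CPM and of 7.96 and 13.6 CPM, against DMSO values of 12.4 and 9.87 CPM and of 10.7 and 12.4 CPM. None of these 3 was called at 4 h by edgeR (adjusted p = 0.950, 0.902 and 0.916), which follows from picking them by their 4 h level. In all, 19 members lacked the full separation of 4 h from DMSO, with a median DMSO level of 11.6 CPM and none above 22.4 CPM.

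**Figure D3:**
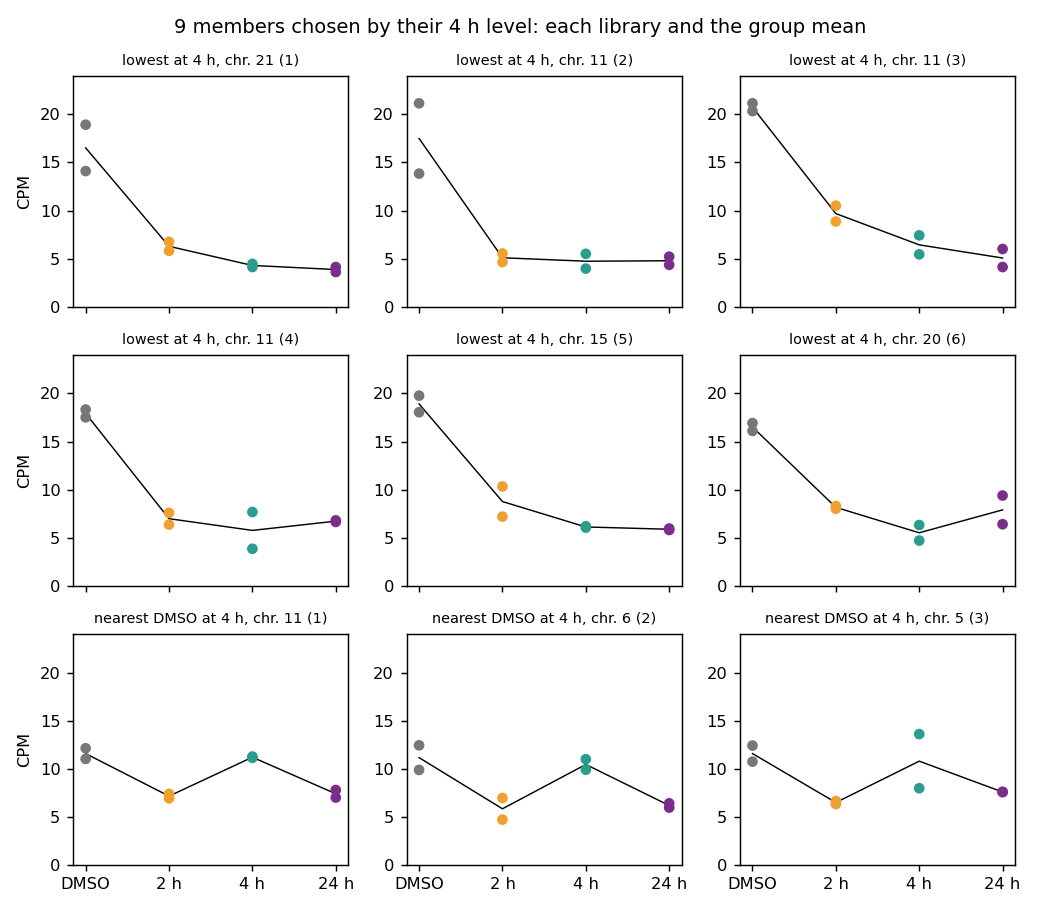
CPM in each library (points) and the group mean (line) for the 6 stronger members with the lowest L at 4 h (upper panels) and the 3 members with the highest L at 4 h (lower panels), ordered by L at 4 h, with the neighbouring chromosome 11 pair as panels 2 and 4; the x axis gives DMSO and 2 h, 4 h and 24 h of dTAG47. In the upper panels all treated libraries lie below both DMSO libraries, and in the lower panels the 4 h points overlap those of DMSO.

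The 4 strongest members lay on chromosomes 10 and 9, next to other members. The strongest, chr10:103529989-103530389, had 145 and 146 CPM in DMSO, 85.4 and 104 CPM at 2 h, 88.2 and 84.1 CPM at 4 h, and 80.6 and 74.6 CPM at 24 h. Its neighbour 5.15 kb away, chr10:103535537-103535937, had 143 and 138 CPM in DMSO, 94.8 and 98.2 CPM at 2 h, 78.8 and 95.4 CPM at 4 h, and 78.4 and 81.0 CPM at 24 h. In both, all treated libraries lay below both DMSO libraries, and L at 24 h was -0.90 and -0.82.

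The chromosome 9 members were lower still at 24 h. The peak at chr9:133540074-133540474 had 129 and 117 CPM in DMSO, 79.1 and 67.9 CPM at 2 h, 60.1 and 59.3 CPM at 4 h, and 43.4 and 49.4 CPM at 24 h. The one at chr9:133355271-133355671 had 132 and 134 CPM in DMSO, 72.7 and 77.6 CPM at 2 h, 77.5 and 63.6 CPM at 4 h, and 54.8 and 68.0 CPM at 24 h. The log2 changes at 4 h were -1.05 (SE 0.09, edgeR adjusted p = 2.62e-19) and -0.93 (SE 0.09, edgeR adjusted p = 4.13e-17). The 2 peaks on chromosome 10 changed by -0.78 and -0.70 at 4 h (SE 0.08 each, edgeR adjusted p = 7.06e-14 and 1.78e-11). All 4 were picked by their level in the DMSO libraries that 4 h is compared with, so these values are a description.

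Among stronger members, the 4 with the largest further drop after 2 h were chosen by that difference. The peak at chr5:31132974-31133374 had 25.7 and 24.5 CPM in DMSO, 14.1 and 11.2 CPM at 2 h, 11.8 and 9.40 CPM at 4 h, and 5.40 and 4.12 CPM at 24 h. The isolated peak at chr8:33184397-33184797, whose nearest neighbour lay 145 kb away, had 18.6 and 16.4 CPM in DMSO, 9.40 and 10.3 CPM at 2 h, 6.59 and 5.93 CPM at 4 h, and 4.40 and 3.20 CPM at 24 h. The other 2, chr1:3286971-3287371 and chr1:209721628-209722028, stood at 15.5 and 14.8 CPM and at 20.2 and 15.2 CPM at 2 h, and at 6.60 and 6.87 CPM and at 8.80 and 7.78 CPM at 24 h. In each of the 4, both 24 h libraries lay below both 4 h libraries. The 4 h libraries lay below both 2 h libraries in 3 of them and overlapped those of 2 h in the chromosome 5 peak.

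The 4 stronger members with the highest L at 24 h minus L at 2 h stayed below DMSO. The peak at chr11:61263948-61264348 had 34.7 and 35.0 CPM in DMSO, 16.6 and 19.0 CPM at 2 h, 18.4 and 17.8 CPM at 4 h, and 20.2 and 23.1 CPM at 24 h. The peak at chr10:123442119-123442519 had 18.4 and 19.7 CPM in DMSO, 11.9 and 7.38 CPM at 2 h, 10.7 and 9.89 CPM at 4 h, and 12.6 and 11.7 CPM at 24 h. L at 24 h minus L at 2 h was 0.27 and 0.30. It was 0.25 for chr10:134555705-134556105 and 0.22 for chr15:99497176-99497576. The 2 libraries of the chr10:123442119 peak at 2 h differed by more than its difference between times, and the direct edgeR comparison of 24 h with 2 h called none of the 4.

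The limit of -0.5 cut through similar peaks. Just inside it, the larger of the 2 L values was -0.5003 for chr6:161581639-161582039 and -0.5008 for chr17:33457298-33457698. Just outside, it was -0.4996 for chr16:55049396-55049796 and -0.4994 for chr9:133347265-133347665. The chromosome 16 peak outside the limit stood at 8.40 and 9.61 CPM at 24 h against 24.3 and 24.8 CPM in DMSO, a larger drop at that time than either peak inside the limit showed (11.6 and 9.84 against 16.9 and 15.5 CPM on chromosome 6, and 7.80 and 7.09 against 14.1 and 11.8 CPM on chromosome 17).

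Position played no part in the choice. Peaks separated by at most about 13 kb were joined into regions. The 486 members lay in 413 regions, which held 610 other peaks. Of these regions, 351 held 1 member, 54 held 2, 6 held 3, 1 held 4 and 1 held 5. In all, 135 members (27.8%) shared a region with another member. Of the 998 peaks that met the 24 h conditions but were no members, 23.6% shared a region with another peak of that list, and of the 248 that met the 2 h conditions only, 10.1%. Lists of other sizes share regions at other rates, so these shares are not compared further. Members alone in their region numbered 143 (29.4%), against 36.3% of the peaks that met the DMSO minimum. Among the 343 members with a neighbour in the region, 153 were its strongest peak in DMSO. In 21 regions of 2 or more peaks every peak was a member.

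Members that shared a region with another member were stronger in DMSO and had lower L. Their median DMSO level was 20.9 CPM, against 14.7 CPM for the 351 with no other member nearby. The median L was -0.71 against -0.65 at 2 h, -0.81 against -0.71 at 4 h, and -1.01 against -0.86 at 24 h, and edgeR called 81.5% against 57% lower at 4 h. The called share also moves with DMSO level, as given above, and the part of that level in the difference was not tested.

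Peaks close to a member were lower too. For this, each peak that met the DMSO minimum, members included, was placed by its gap to the nearest other member. Members had been chosen low at 2 h and 24 h, so their share in the near bins raises those values. Of 158 peaks within 1 kb of another member, edgeR called 43% lower at 2 h, 53.8% at 4 h and 72.8% at 24 h. Between 5 and about 13 kb away (193 peaks) the shares were 9.84%, 12.4% and 29.5%. From 50 to 100 kb away (706 peaks) they were 3.12%, 3.40% and 10.5%, and beyond 250 kb (22629 peaks) 0.893%, 1.57% and 5.47%. These shares include the members and show no decline that is independent of the choice. Without the members, the 76 peaks within 1 kb were called lower in 7.89% at 2 h, 21.1% at 4 h and 44.7% at 24 h, and the 22349 peaks beyond 250 kb in 0.336%, 0.886% and 4.47%. Their shares did not fall steadily with distance: from 1 to 2 kb (26 peaks) they were 11.5%, 30.8% and 46.2%. The peaks share the same DMSO libraries, and neighbours within 1 kb may be parts of one acetylated stretch.

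**Figure D4:**
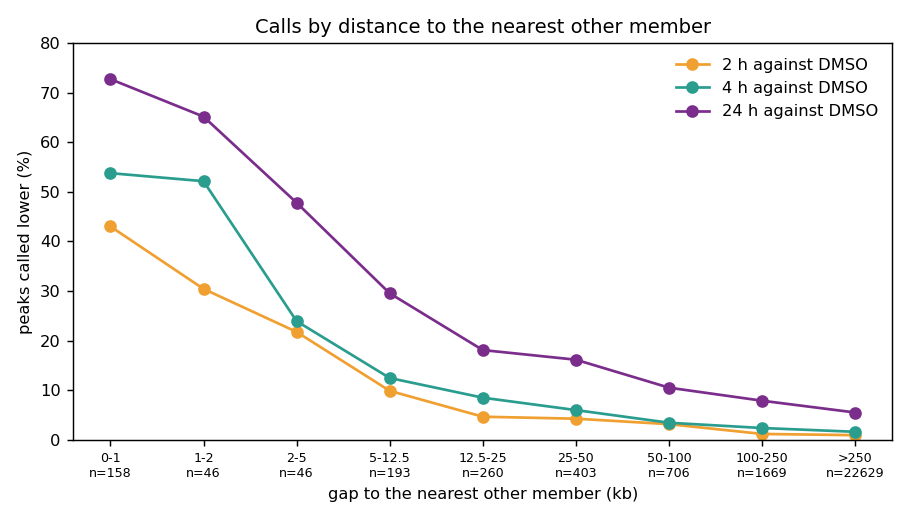
Percent of peaks called lower than in DMSO by edgeR (y axis) at 2 h, 4 h and 24 h, by gap to the nearest other early-lost peak in kb (x axis, bins with their number of peaks n), among peaks with a DMSO mean of at least 10 CPM, members included. The 24 h share is 72.8% within 1 kb and 5.47% beyond 250 kb, and members, chosen low at 2 h and 24 h, raise the near bins: without them these shares are 44.7% and 4.47%.

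Peaks near a member that the rule had not kept were also lower at a higher rate than all peaks tested. Of 414 tested non-members within about 13 kb of a member, edgeR called 20 lower at 2 h (4.83%), 42 at 4 h (10.1%) and 108 at 24 h (26.1%). It called 3 of them higher at 24 h (0.725%). Within 5 kb (170 peaks) the lower shares were 8.24%, 17.6% and 37.6%. Over all peaks tested the lower shares were the 1.03%, 1.67% and 4.88% given above. The 414 had median log2 changes of -0.18 (2 h), -0.19 (4 h) and -0.27 (24 h), and 328 of them had a negative value at 24 h.

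Few neighbours went the other way. edgeR called 0.641% of the 312 non-members within about 13 kb that met the DMSO minimum higher at 24 h. Beyond 250 kb, it called 3.25% of the 22349 such non-members higher. Among non-members within about 13 kb that met the DMSO minimum, the 2 with the highest L at 24 h were chr9:92855154-92855554 and chr5:134978937-134979337. The chromosome 9 peak had 10.5 and 16.6 CPM in DMSO, 11.1 and 16.4 CPM at 2 h, 16.8 and 16.8 CPM at 4 h, and 23.6 and 23.8 CPM at 24 h. Its log2 change at 24 h was 0.78 (SE 0.18, edgeR adjusted p = 0.00113), and a member lay 11.1 kb away. The chromosome 5 peak had 20.8 and 17.6 CPM at 24 h against 13.3 and 14.9 CPM in DMSO (edgeR adjusted p = 0.15). As both peaks were picked by their 24 h level, their log2 changes and p-values at 24 h follow from the pick and are a description.

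Of the 8 regions with 3 or more members, 5 are described: those with 5 and 4 members, and the 3 of the 6 regions with 3 members whose members had the highest summed DMSO CPM. The region chr9:133535360-133548798, 13.4 kb wide, held 5 members among 6 peaks. Summed over its members, it had 458 and 443 CPM in DMSO, 275 and 262 CPM at 2 h, 226 and 235 CPM at 4 h, and 187 and 190 CPM at 24 h. The 4 members in its left part had L between -1.14 and -1.42 at 24 h, and the member at its far end, chr9:133548398-133548798, had -0.71. The weak peak beside that one, chr9:133547602-133548002, had 12.7 and 15.5 CPM in DMSO and 13.6 and 16.9 CPM at 24 h, with 1 of the 24 h libraries between the DMSO libraries and the other above both. The 5 members span the region, and the peak that is no member is its weakest in DMSO. Members were chosen low at 2 h and 24 h, so their difference from that peak at those times follows from the choice.

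The region chr9:133296688-133355671, 59 kb wide on the same chromosome, held 3 members among 13 peaks, which were its 3 rightmost peaks. The members summed to 240 and 252 CPM in DMSO, 151 and 149 CPM at 2 h, 147 and 136 CPM at 4 h, and 115 and 135 CPM at 24 h. The other 10 peaks summed to 375 and 382 CPM in DMSO, 341 and 353 CPM at 2 h, 336 and 334 CPM at 4 h, and 304 and 301 CPM at 24 h. Members were chosen low at 2 h and 24 h, so the gap between the 2 sums at those times follows from the choice. At 4 h, L of the sums was -0.80 for the members and -0.17 for the other peaks, against the same DMSO libraries.

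On chromosome 6, the region chr6:110850217-110864512 held 4 members among 5 peaks, with member sums of 72.0 and 73.6 CPM in DMSO, 44.8 and 41.1 CPM at 2 h, 44.2 and 37.8 CPM at 4 h, and 39.8 and 35.0 CPM at 24 h. The region chr6:44623502-44650409 held 3 members among 10 peaks. One of them, chr6:44627664-44628064, had 43.2 and 56.7 CPM in DMSO, 29.6 and 25.7 CPM at 2 h, 21.4 and 23.7 CPM at 4 h, and 17.0 and 14.6 CPM at 24 h. The 7 other peaks there summed to 244 and 254 CPM in DMSO and to 204 and 183 CPM at 2 h. Their sums were 173 and 196 CPM at 4 h and 195 and 198 CPM at 24 h, all below both DMSO sums. Among these 7, only chr6:44649051-44649451 had L above 0, at 0.05 (2 h), 0.12 (4 h) and 0.03 (24 h).

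The fifth region, chr11:61263948-61277011, had 3 peaks, all members. Their sum was 114 and 122 CPM in DMSO, 67.7 and 71.4 CPM at 2 h, 66.5 and 58.1 CPM at 4 h, and 56.4 and 70.3 CPM at 24 h. Its first peak was among those with the highest L at 24 h minus L at 2 h, whereas in the other 2 L was lower at 24 h than at 2 h (-1.02 against -0.75, and -0.88 against -0.54).

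**Figure D5:**
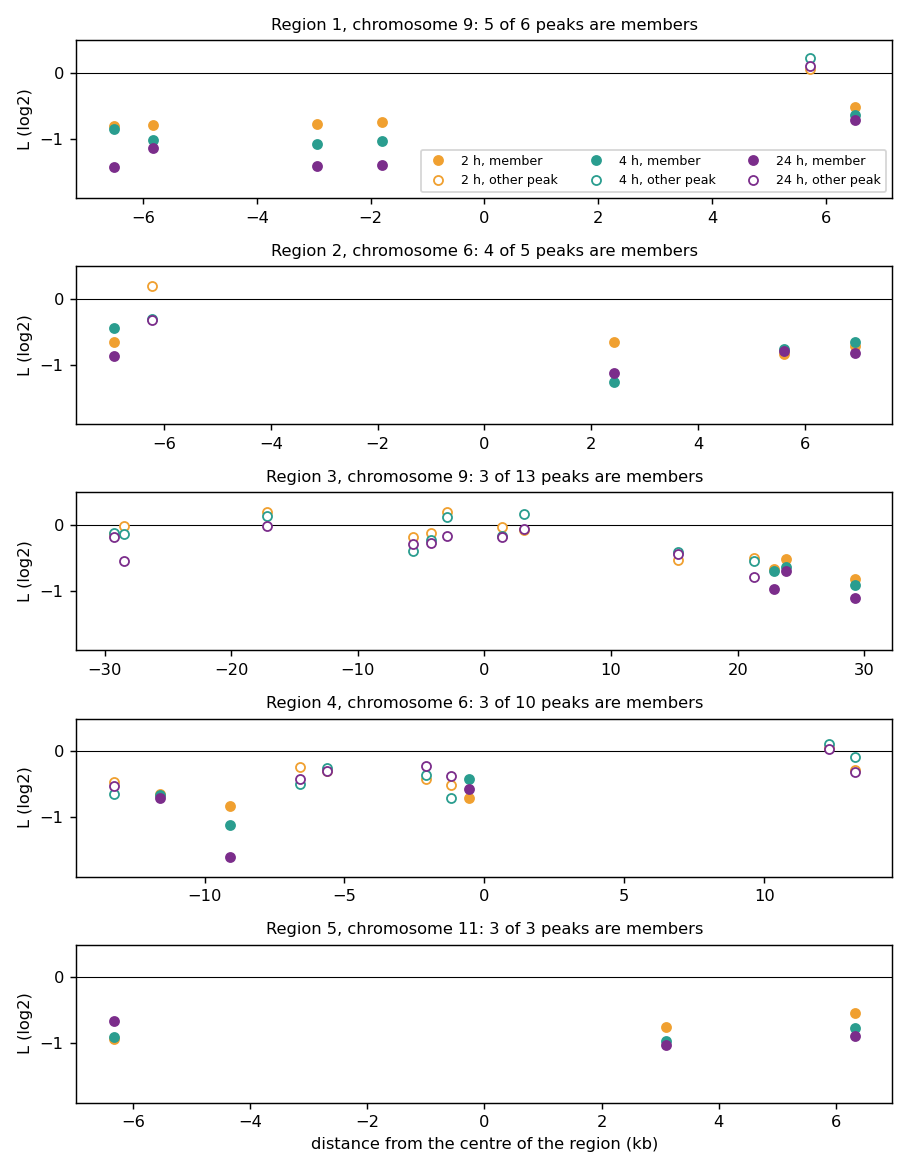
The regions with 5 and 4 early-lost peaks and, of the 6 with 3, the 3 with the highest summed DMSO CPM of members; the x axis is the distance from the region's centre in kb, the y axis L (log2 ratio to DMSO with 1 CPM added) at 2 h, 4 h and 24 h, filled for members and open for other peaks of the region. In the first region 5 of 6 peaks lie below -0.5 at every time, and in the third the members sit together at the right end.

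Members were spread over the chromosomes at unequal shares of the peaks that met the DMSO minimum. Chromosome 6 had 37 members (3.0% of its 1233 such peaks), chromosome 9 had 39 (2.59% of 1507) and chromosome 11 had 35 (2.45% of 1429). Chromosome 19 had 8 (0.557% of 1436), chromosome 3 had 13 (1.05% of 1242) and chromosome 12 had 16 (1.16% of 1378). Chromosome 1 had the most, 56, at 1.93% of its 2895 peaks. Clustered members count more than once in these shares, and no test was made of them.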

How the data were processed

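H3K27ac ChIP-seq of 8 libraries was analysed from one table of deposited raw counts of reads per peak, with nearly all windows (42065) of width 400 bases. Trimmomatic 0.32, Bowtie2, MACS2, DiffBind, DESeq2 and the builds hg19 and dm3 are named, without roles, per the submitters' processing notes. Duplicate removal, spike-in use and the libraries behind the peak calls are not given in the sources used here. Coordinates are printed as deposited (hg19).

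CPM used column sums. The tests were edgeR 4.0.16 quasi-likelihood (R 4.3.3; filterByExpr at 10 counts, or 15 in total, TMM, robust, 1 fit of 4 groups), with Benjamini-Hochberg adjusted p under 0.05, and DESeq2 1.42.0 and glmTreat as alternatives. The edgeR quasi-likelihood comparisons of 2 h, 4 h and 24 h with DMSO were tested on simulated data. DESeq2, glmTreat and the comparisons between times were not. Replicate counts differed by more than sampling noise in every group (chi-square per degree of freedom 1.06 to 1.21), so no library was merged. Nothing states that the libraries of a group came from separate cultures, so p-values measure the spread between these libraries, which may be technical. With a biological coefficient of variation of 3.29%, counting error is a large part of it.

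The members, regions and comparisons were chosen with earlier results of these data known. Named peaks were the 6 stronger members (DMSO mean at or above the members' median) with the lowest L at 4 h, the 4 strongest, the 3 with the highest L at 4 h, the 4 stronger members at either end of L at 24 h minus L at 2 h, the 2 peaks on either side of the limit, 5 regions by number of members (ties, here among 6 regions with 3, broken by the members' summed DMSO CPM), and the 2 non-member neighbours with the highest L at 24 h.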

Additional observations from a re-analysis of the deposited data

Results flagged for a closer look

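The direct edgeR comparison of 24 h with 2 h called 50 members lower at 24 h and 0 higher (DESeq2 0 higher; 1 higher at an unadjusted p under 0.05 in edgeR), with log2 changes from -2.1 to -0.30. The 2 h and 24 h libraries chose the members, the count was 24 to 33 when 1 library was left out, and DESeq2 called 4. The count is a description of peaks chosen with these libraries and shows no difference between the times that is independent of the choice.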

How the results depend on the processing

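The planned replicate block by the labels' numbers was not run, because the table's columns carry the letters A and B. A replicate block by letter, added after seeing the data, called 267, 311 and 436 members lower at 2 h, 4 h and 24 h against DMSO, 52 at 24 h against 2 h and 13 at 24 h against 4 h. It changed no call of a named member at 4 h. The A minus B differences of log2 CPM correlated between groups at -0.033 to 0.054 across peaks. Counting error is a large part of these differences, so such values cannot tell whether libraries of a letter share more than the letter. The rule kept 734 peaks with a DMSO minimum of 5 CPM and 161 with 20 CPM, 242 with a pseudocount of 5 CPM, and 765, 173 and 36 with limits of -0.4, -0.7 and -1. It kept 511 with TMM scaling, 514 with size factors and 526 with a pseudocount of 0.5 CPM, and 460 to 695 with 1 library left out. Members called lower against DMSO by DESeq2 were 23 at 2 h, 67 at 4 h and 204 at 24 h. By glmTreat they were 87 at 2 h and 198 at 4 h. With 1 library left out, edgeR called 87 to 168 at 2 h, 176 to 200 at 4 h and 317 to 353 at 24 h. At 24 h against 2 h the counts were 4 by DESeq2, 19 by glmTreat and 24 to 33 with 1 library left out, and at 24 h against 4 h they were 0, 0 and 1 to 5. A fit with 1 library in a group takes that library to vary like the others. The median L at 4 h was -0.77 with a pseudocount of 0.5 CPM, -0.58 with 5 CPM and -0.78 to -0.73 with 1 library left out. Non-members called lower within 5 kb of a member were 8.24% at 2 h and 17.6% at 4 h. Joining peaks over 5 or 25 kb gave 53 or 70 regions with 2 or more members. Of the 23 named members, 17 were called at 4 h, and 3 of these lost the call under some alternative. They were chr1:3286971 (DESeq2 adjusted p = 0.136; edgeR adjusted p = 0.0579 without DMSO A), chr10:134555705 (DESeq2 0.0651) and chr10:123442119 (DESeq2 0.501; edgeR 0.103 without DMSO B and 0.0907 without 4 h B). The log2 change at 4 h turned positive for chr11:64936801 (0.0086 without DMSO B, lowest -0.13), chr6:50830097 (0.064 without DMSO A, lowest -0.27) and chr5:37723247 (0.010 without DMSO B and 0.23 without 4 h A, lowest -0.56), none of which was called. The cause of these shifts was not tested.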

Other observations

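Several peaks were picked after their values were seen. The lowest L at 24 h among the 486, -2.47, belonged to chr1:162816075-162816475. It had 10.7 and 12.7 CPM in DMSO, 6.91 and 4.43 CPM at 2 h, 4.67 and 4.95 CPM at 4 h, and 1.00 and 1.60 CPM at 24 h. Its 24 h libraries hold few reads, and both lay below both 4 h libraries.

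Members gathered in one stretch of chromosome 11. Of 42 peaks with a DMSO mean of at least 10 CPM between positions 20000001 and 25000000, 9 were members, among them 3 of the 6 stronger members with the lowest L at 4 h. edgeR called 8 of these 9 lower at 4 h, and the exception starts at 20297552 (adjusted p = 0.0712). On chromosome 6, 7 of 61 such peaks in the 5 Mb from 110 Mb were members, and on chromosome 9, 9 of 262 in the 5 Mb from 130 Mb. These stretches were picked for their counts, and no test was made.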
